A study of Harpegnathos saltator with 27 samples.

Results

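Antennae of wild-type (WT) Harpegnathos saltator pupae at 15 days after puparium formation (D15) were compared with those at 10 days (D10). These are 7 of the 27 libraries of the series, 4 from WT D15 and 3 from WT D10, chosen by their labels alone. H. saltator, the Indian jumping ant, is a social insect whose antenna carries the neurons that read pheromones and other odors. All 7 libraries are polyA RNA of antennae, wild type at orco, the gene that is mutated in the other arm of the series. WT D10 replicates 1, 2, and 3 and WT D15 replicates 1, 2, and 3 are labeled sequencing batch 1, and WT D15 replicate 4 batch 3. How many pupae went into a library, and whether replicates came from separate colonies, is not given in the sources used here. The p-values below therefore measure the spread between libraries only. That spread was estimated over all 27 libraries in one model, and not over these 7 alone. The question of the comparison is which genes differ between an antenna in which precursor cells are still expected to divide and one 5 days older, in which neurons differentiate.

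In insects, each olfactory sensillum is built from a sensory organ precursor that divides a few times to give neurons and the support cells around them. The daughter neurons leave the cell cycle, grow an axon to the antennal lobe and a ciliated dendrite into the sensillum, and turn on receptors. Most olfactory receptor neurons use 1 tuning odorant receptor (Or) together with the co-receptor Orco, and others use ionotropic receptors (Ir) or gustatory receptors (Gr). In ants, the Or family is large, and many of its genes lie side by side in arrays of similar copies. Pulses of the steroid ecdysone pace pupal development through a cascade of nuclear receptors, and the epidermis lays down the adult cuticle in the same period.

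Counts on genes per library ranged from 13772158 to 38608319 at D15 and from 20180162 to 24540091 at D10. The WT D10 libraries were much alike, with correlations of 0.989 to 0.992 between pairs over 13730 genes, given as a description of variance-stabilized counts. Those of WT D15 were less alike, with correlations of 0.905 to 0.967. With WT D10, replicate 3 of WT D15 had the lowest correlations, 0.874 to 0.881, and replicate 4 the highest, 0.946 to 0.955. D15 is therefore an average over libraries that differ from each other, and results that rest on one of them are named as they come. The markers that the study used for cell types were present at both stages. The neuronal gene fne had 10216, 8193, 12978 and 7151 normalized counts in WT D15, against 10586, 7721 and 12362 in WT D10 (values are in replicate order here and below), and the glial gene repo had 789.8, 951, 732 and 1486 normalized counts in WT D15, against 1523, 1528 and 1275 in WT D10. Neither passed the test, with edgeR adjusted p-values of 0.869 and 0.102. The fitted change of fne was above 0 in place of below 0 without WT D10 replicate 3. The muscle gene Mhc had 391, 851, 1361 and 375 normalized counts in WT D15, against 199.7, 500.3 and 57.7 in WT D10 (log2 fold change 1.498, SE 0.81, edgeR adjusted p = 0.187), so muscle RNA was in libraries of both stages. Normalized counts are counts divided by a size factor that evens out depth. They are not divided by gene length, so levels are compared between libraries and not between genes.

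Of 11086 genes with enough counts to test, 1682 were higher at D15 than at D10 and 1170 were lower, at an adjusted p below 0.05. That is a background of 15.2% of all genes tested called higher and 10.6% called lower, against which the lists below are read. Leaving out 1 of the 3 WT D10 libraries lowered the number of higher genes to 1112, 1095, and 1061 (without replicates 1, 2, and 3), and without WT D10 replicate 3 the number of lower genes was 766. Every WT D15 library was above every WT D10 library for 2144 genes (19.3%) and below for 2008 (18.1%), calls or not. Without WT D15 replicate 4, which leaves both stages in sequencing batch 1, 1866 genes were higher and 1329 lower. The libraries of the other groups, from all batches, stayed in that model. Among the 1682 higher genes, replicate 3 had the highest count of the 4 WT D15 libraries in 800 genes and replicate 4 in 90. Among the 1170 lower genes, replicate 3 had the lowest count in 599 and replicate 4 in 51. Replicate 3 of WT D15 thus most often lay farthest from D10, and replicate 4 least often. In bulk RNA, fewer cells of a type and less RNA per cell cannot be told apart, and this holds for each difference below.

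**Figure D1:**
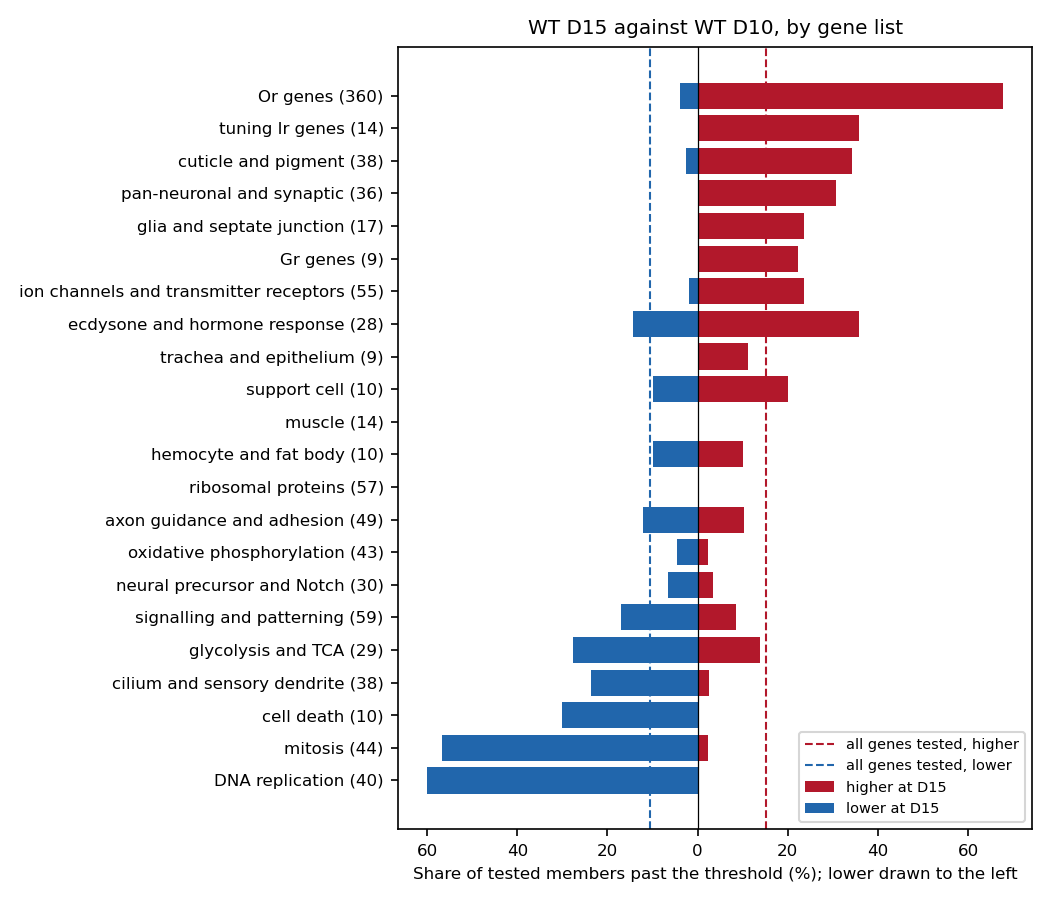
Share of the tested members of each gene list (number in parentheses) that were higher (right, red) or lower (left, blue) in WT D15 than in WT D10 antennae at an edgeR adjusted p below 0.05. Dashed lines mark the shares over all genes tested, 15.2% higher and 10.6% lower. DNA replication and mitosis genes reach farthest to the left and Or genes farthest to the right.

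Most genes of DNA replication were lower at D15. Of 40 tested, 24 were lower at D15 and 0 were higher (DESeq2: 24 and 0; edgeR at an unadjusted p below 0.05: 26 and 0), with a median log2 fold change of −0.64, against 0.03 over all genes tested. The share of 60% lower compares with the background of 10.6%. The sharpest falls were in the helicase that unwinds DNA ahead of the fork. Mcm7, a helicase subunit, had 197, 202, 131 and 424 normalized counts in WT D15, against 1092, 1175 and 1157 in WT D10 (log2 fold change −2.30, SE 0.34, edgeR adjusted p = 8.73e-05). Mcm3, another subunit, had 107, 162, 69.1 and 379.8 normalized counts in WT D15, against 815, 895 and 852 in WT D10 (log2 fold change −2.28, SE 0.38, edgeR adjusted p = 0.000226). Mcm6 had 309, 341, 257 and 474 normalized counts in WT D15, against 1117, 1017 and 1040.1 in WT D10 (log2 fold change −1.66, SE 0.22, edgeR adjusted p = 3.49e-05). In all 3 genes the WT D10 libraries lay within a narrow band, every WT D15 library was below it, and WT D15 replicate 4 was the highest of its stage. Without that library the fold change of Mcm3 was −2.97. The helicase gene dpa, the Mcm4 of flies, had 239, 371, 151 and 485 normalized counts in WT D15, against 978, 1093 and 1038 in WT D10 (log2 fold change −1.77, SE 0.28, edgeR adjusted p = 0.000142). PCNA, the sliding clamp that holds the polymerase on DNA, had 435, 343, 238 and 495 normalized counts in WT D15, against 1265, 1211 and 1349 in WT D10 (log2 fold change −1.80, SE 0.31, edgeR adjusted p = 0.000329). The groups did not overlap for either gene. Not every part of the machinery moved alike. The origin recognition genes Orc2 and Orc5 had fitted log2 fold changes of −0.20 and 0.12 (edgeR adjusted p = 0.523 and 0.776), and CycE, the cyclin of S phase entry, had −0.16 (adjusted p = 0.634). These 3 genes were picked after their values were seen.

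Mitotic genes showed the same direction, with 25 of 44 lower, 1 higher, and a median log2 fold change of −0.69. The share of 56.8% lower compares with 10.6% over all genes tested. Cdk1, the kinase that drives entry into mitosis, had 155, 212, 137 and 279.8 normalized counts in WT D15, against 859, 891 and 859 in WT D10 (log2 fold change −2.19, SE 0.32, edgeR adjusted p = 8.04e-05). The spindle checkpoint gene mad2 had 195, 177, 111 and 318 normalized counts in WT D15, against 601, 619 and 555 in WT D10 (log2 fold change −1.60, SE 0.30, edgeR adjusted p = 0.000534). The highest WT D15 library was well below the lowest WT D10 library for both genes. Klp3A, a kinesin of the central spindle, had 364, 453, 262 and 527 normalized counts in WT D15, against 1035, 1069.6 and 1157 in WT D10 (log2 fold change −1.48, SE 0.25, edgeR adjusted p = 0.000257). CycB3, a mitotic cyclin, had 402, 482, 425 and 352 normalized counts in WT D15, against 733, 814 and 865 in WT D10 (log2 fold change −1.002, SE 0.18, edgeR adjusted p = 0.000384). The checkpoint kinase gene grp, the fly Chk1, had 624, 690.1, 585 and 559.5 normalized counts in WT D15, against 1486, 1521 and 1564 in WT D10 (log2 fold change −1.36, SE 0.23, edgeR adjusted p = 0.000223). The fall was partial in each of them, and none neared 0. The single mitotic list member that was higher was Klp98A, a kinesin that in flies moves endosomes during asymmetric division, with 3258, 2772, 3151 and 2547 normalized counts in WT D15, against 1166, 1162 and 1089 in WT D10 (log2 fold change 1.31, SE 0.31, edgeR adjusted p = 0.00381). No WT D15 library overlapped with WT D10 for Klp98A. The number of lower mitotic genes was 16 under scaling by library size only and 11 when the model held just the 7 libraries.

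p53, the transcription factor of the DNA damage response, was the cell death list's largest change, with 417, 450.3, 229 and 594 normalized counts in WT D15, against 2358, 2561 and 2309.6 in WT D10 (log2 fold change −2.55, SE 0.33, edgeR adjusted p = 2.76e-05). Every WT D15 library was far below the lowest WT D10 library. The initiator caspase gene Dronc had 842, 690.1, 798 and 814 normalized counts in WT D15, against 1182, 1192 and 1117 in WT D10 (log2 fold change −0.61, SE 0.19, edgeR adjusted p = 0.0205). Its call was lost without WT D10 replicate 1, WT D10 replicate 2, or WT D15 replicate 2 (adjusted p = 0.0618, 0.0657, and 0.0544). AIF, a mitochondrial oxidoreductase named for its part in cell death, had a log2 fold change of −0.57 and lost its call in 4 such fits. Of the 10 cell death genes tested, these 3 were lower and 0 were higher (DESeq2: 0; at an unadjusted p below 0.05: 1), with a list median of −0.0008. The share of 30% lower compares with 10.6% over all genes tested. Without WT D10 replicate 1, only 1 of the 10 was called.

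Genes that mark or steer precursor cells changed one by one and not as a list. Among 30 neural precursor and Notch pathway genes, 2 were lower and 1 was higher, with a median log2 fold change of 0.17, below the background in both directions. dpn, a repressor of the Hes family that marks neural stem cells in flies, had 13.8, 76.7, 20.5 and 218 normalized counts in WT D15, against 424, 699 and 684 in WT D10 (log2 fold change −2.89, SE 0.73, edgeR adjusted p = 0.00619). The spread among WT D15 libraries was wide, from 13.8 in replicate 1 to 218 in replicate 4, without which the fold change was −4.07. SoxN, a Sox factor of the early neuroectoderm, had 174, 152, 298 and 181 normalized counts in WT D15, against 548, 649 and 739 in WT D10 (log2 fold change −1.73, SE 0.41, edgeR adjusted p = 0.00362). ttk, which in the fly sensory organ lineage represses neuronal fate in support cells, had 8839, 8391, 7077 and 8881 normalized counts in WT D15, against 3329, 2264 and 2958 in WT D10 (log2 fold change 1.49, SE 0.45, edgeR adjusted p = 0.0183). Its call was lost without WT D10 replicate 2 or 3 (adjusted p = 0.0827 and 0.0593). The Notch ligand and receptor genes themselves, Dl and N, had fitted log2 fold changes of 0.53 and 0.41 that did not pass (edgeR adjusted p = 0.39 and 0.634). Both were picked after their values were seen. Transcription factors outside this list were among the largest falls of the comparison. Hey, a target of Notch signaling in newborn fly neurons, had 0.859, 14.3, 2.56 and 12.4 normalized counts in WT D15, against 77.9, 124 and 305 in WT D10 (log2 fold change −4.46, SE 0.94, edgeR adjusted p = 0.00154), and −3.73 without WT D10 replicate 3. Kr, a zinc finger factor known from segmentation and neuroblast timing in flies, had 3.44, 0, 17.9 and 16.5 normalized counts in WT D15, against 168, 131 and 157 in WT D10 (log2 fold change −4.03, SE 0.98, edgeR adjusted p = 0.00461). In both genes all WT D15 libraries were below 20 normalized counts.

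Patterning and signaling genes included more falls than rises, with 10 of 59 lower, 5 higher, and a median log2 fold change of −0.10. The shares were 16.9% lower and 8.47% higher, against 10.6% and 15.2% over all genes tested. The count of lower genes moved both ways with the setting. It was 20 with sequencing batch as a term and 15 without WT D15 replicate 4, 5 when scaled by library size only or with only the 7 libraries, and 6 without WT D10 replicate 2, WT D15 replicate 1, or WT D15 replicate 3. Further, without any one of the WT D10 libraries 3 were higher. dan, a nuclear factor of the fly eye and antenna, had 44.7, 98.1, 67.9 and 82.4 normalized counts in WT D15, against 329, 335 and 318 in WT D10 (log2 fold change −2.20, SE 0.36, edgeR adjusted p = 0.000206). Lim1, a homeodomain factor of the distal antenna, had 22.3, 65.1, 118 and 222 normalized counts in WT D15, against 685, 1290.5 and 401 in WT D10 (log2 fold change −2.93, SE 0.54, edgeR adjusted p = 0.000531), with −3.60 when WT D15 replicate 4 was left out. ci, the transcription factor at the end of the Hedgehog pathway, had 83.4, 225, 376 and 595 normalized counts in WT D15, against 954, 1376 and 821 in WT D10 (log2 fold change −1.76, SE 0.44, edgeR adjusted p = 0.00539). pdm3, a POU factor that acts in the choice of receptors by fly olfactory neurons, had 237, 77.6, 344 and 157 normalized counts in WT D15, against 562, 884 and 547 in WT D10 (log2 fold change −1.76, SE 0.41, edgeR adjusted p = 0.00306). The gap between stages was clear for dan and narrower for ci, pdm3, and Lim1, in which the highest WT D15 library came near the lowest WT D10 library. wg, the founding Wnt ligand, had 0.859, 25, 83.2 and 40.8 normalized counts in WT D15, against 202, 226 and 256 in WT D10 (log2 fold change −2.66, SE 0.72, edgeR adjusted p = 0.00938), a gene picked after its values were seen. aos, a secreted inhibitor of the EGF receptor and itself a readout of that pathway in flies, had 827, 869, 735 and 524 normalized counts in WT D15, against 193, 173 and 207 in WT D10 (log2 fold change 1.90, SE 0.28, edgeR adjusted p = 7.84e-05). aop, an Ets repressor that the same pathway switches off in flies, had 3617, 9713, 1503 and 9034 normalized counts in WT D15, against 788, 799 and 726 in WT D10 (log2 fold change 2.91, SE 0.68, edgeR adjusted p = 0.00349). gbb, a BMP ligand, had 675, 863, 700.4 and 905 normalized counts in WT D15, against 438, 495 and 299 in WT D10 (log2 fold change 0.89, SE 0.22, edgeR adjusted p = 0.00494). The MAP kinase gene rl had 1385, 1599, 1356 and 1399 normalized counts in WT D15, against 1949, 1992 and 1930.5 in WT D10 (log2 fold change −0.50, SE 0.12, edgeR adjusted p = 0.00499), a small difference with tight replicates.

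Part of the synaptic gene list was higher at D15. Of 36 pan-neuronal and synaptic genes, 11 were higher and 0 lower (DESeq2: 14 and 0; edgeR at an unadjusted p below 0.05: 16 and 0), with a median log2 fold change of 0.76. The share of 30.6% compares with 15.2% over all genes. The count rests on the small WT D10 group, being 7, 4, and 6 without WT D10 replicates 1, 2, and 3, and it was 8 when scaled by library size only. Without WT D10 replicate 2, the 4 of 36 stood against 1095 of 11086 genes, a share near that background. ChAT, the enzyme that makes acetylcholine, had 2625, 1645, 3125 and 1129 normalized counts in WT D15, against 415, 313 and 318 in WT D10 (log2 fold change 2.56, SE 0.32, edgeR adjusted p = 2.3e-05). VAChT, which loads acetylcholine into vesicles, had 373, 366, 759 and 309.7 normalized counts in WT D15, against 199, 198 and 186 in WT D10 (log2 fold change 1.16, SE 0.28, edgeR adjusted p = 0.00387). Both cholinergic genes were thus higher at D15 in every library, by unequal amounts. unc-13, which primes vesicles for release, had 5791, 3114, 6095 and 3139.6 normalized counts in WT D15, against 1188, 676 and 884 in WT D10 (log2 fold change 2.26, SE 0.62, edgeR adjusted p = 0.00991), with the call lost without WT D10 replicate 2 (adjusted p = 0.0533). nSyb, the neuronal vesicle SNARE, had 4367, 3132, 4398 and 3459 normalized counts in WT D15, against 2124, 1359.5 and 1681 in WT D10 (log2 fold change 1.11, SE 0.22, edgeR adjusted p = 0.00103). Sytbeta, of the synaptotagmin family of calcium sensors, had 315, 224, 502 and 158 normalized counts in WT D15, against 76.5, 98.9 and 51.7 in WT D10 (log2 fold change 1.92, SE 0.34, edgeR adjusted p = 0.000384). The stages did not overlap in any of these genes. Syt1, the main calcium sensor of fast release, had 1555, 1160.0, 2562 and 1369 normalized counts in WT D15, against 961, 750.4 and 1007 in WT D10 (log2 fold change 0.82, SE 0.33, edgeR adjusted p = 0.0706), so that it lay just outside the threshold. onecut, a neuronal homeodomain factor, had 455, 319, 452 and 570.0 normalized counts in WT D15, against 621, 529.5 and 856 in WT D10 (log2 fold change −0.62, SE 0.59, edgeR adjusted p = 0.48), and fne is given above. VGlut, the vesicular glutamate transporter, had 5.16, 0, 84.5 and 8.99 normalized counts in WT D15, against 2.09, 3.11 and 3.04 in WT D10 (log2 fold change 3.01, SE 1.27, edgeR adjusted p = 0.0864). It was picked after its values were seen, and 1 library carried most of its D15 counts.

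Among ion channel and transmitter receptor genes, 13 of 55 were higher and 1 was lower, with a median log2 fold change of 0.62. The share of 23.6% is nearer to the background of 15.2% than that of the synaptic list, and the count fell to 6, 6, and 7 without WT D10 replicates 1, 2, and 3, to 7 without WT D15 replicate 3, and to 8 under scaling by library size only. Shab, a voltage-gated potassium channel of the delayed rectifier type, had 397, 204, 725 and 154 normalized counts in WT D15, against 74.4, 51 and 70.7 in WT D10 (log2 fold change 2.44, SE 0.51, edgeR adjusted p = 0.00154). nAChRalpha4, an acetylcholine receptor subunit, had 65.3, 81.1, 183 and 76.8 normalized counts in WT D15, against 14.6, 11.2 and 15.2 in WT D10 (log2 fold change 2.83, SE 0.80, edgeR adjusted p = 0.0124), with the call lost without WT D10 replicate 2 (adjusted p = 0.0562). For both genes WT D15 replicate 3 was the highest library. unc79, which in flies belongs to the complex of the sodium leak channel, had 739, 554, 968 and 495 normalized counts in WT D15, against 351, 206 and 264 in WT D10 (log2 fold change 1.28, SE 0.30, edgeR adjusted p = 0.00381). The mechanically gated channel gene Piezo had 902, 1579, 1821 and 1054 normalized counts in WT D15, against 541, 609 and 557 in WT D10 (log2 fold change 1.18, SE 0.28, edgeR adjusted p = 0.00367). The calcium channel gene cac of the active zone had 1615, 1232, 2142 and 923 normalized counts in WT D15, against 244, 189.8 and 195 in WT D10 (log2 fold change 2.77, SE 0.57, edgeR adjusted p = 0.00125). Elk, a potassium channel of the EAG family, went the other way, with 995, 1232, 2602 and 1971 normalized counts in WT D15, against 6280.2, 4374 and 6352 in WT D10 (log2 fold change −1.79, SE 0.35, edgeR adjusted p = 0.000961). The lowest WT D10 library of Elk was above the highest WT D15 library. para, the voltage-gated sodium channel of the action potential, had 804, 786, 1841 and 1183 normalized counts in WT D15, against 574, 362 and 498 in WT D10 (log2 fold change 1.22, SE 0.82, edgeR adjusted p = 0.296) and did not pass. It was picked after its values were seen.

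Axon guidance and adhesion genes split, with 5 of 49 higher, 6 lower, and a median of −0.01, which was 0.04 under scaling by DESeq2 size factors or by library size only. The shares of 10.2% and 12.2% are near the background, and without WT D15 replicate 3 the counts were 3 and 3. The count of lower genes was also 3 without WT D10 replicate 2, without WT D15 replicate 1, or when scaled by library size only, and that of higher genes 3 without WT D10 replicate 1 or 3. Among the higher ones, bdl, an immunoglobulin protein of glia and photoreceptor axons in flies, had 1262, 1090.4, 1039.7 and 918 normalized counts in WT D15, against 252, 198 and 218 in WT D10 (log2 fold change 2.23, SE 0.35, edgeR adjusted p = 0.000134). GEFmeso, an exchange factor for small GTPases, had 2100.3, 1631, 2643 and 2079.7 normalized counts in WT D15, against 759, 795 and 613 in WT D10 (log2 fold change 1.498, SE 0.33, edgeR adjusted p = 0.00204). Tl, the Toll receptor, had 2099, 1484, 4169 and 1818 normalized counts in WT D15, against 929, 959 and 743 in WT D10 (log2 fold change 1.39, SE 0.27, edgeR adjusted p = 0.000855). All 3 were clear of WT D10 in every WT D15 library. The lower ones included genes of the growing actin cytoskeleton. ena, which extends actin filaments at the growth cone, had 832, 1113, 1225 and 1832 normalized counts in WT D15, against 2777, 2894 and 2779 in WT D10 (log2 fold change −1.22, SE 0.28, edgeR adjusted p = 0.00337). chic, the fly profilin, which feeds actin monomers to the filament, had 9219, 14883, 16587 and 20657 normalized counts in WT D15, against 31688, 33085 and 37315 in WT D10 (log2 fold change −1.20, SE 0.27, edgeR adjusted p = 0.00257). Con, a homophilic adhesion protein, had 987, 969, 1321 and 2551 normalized counts in WT D15, against 7482, 5345 and 7237 in WT D10 (log2 fold change −2.24, SE 0.48, edgeR adjusted p = 0.00182). Again the stages did not overlap, and WT D15 replicate 4 was the highest of its stage for all 3 genes. Fas3, unc-119, dock, and fz2 were also called, each with the call lost in 3 to 5 of the 7 fits that left out 1 library.

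**Figure D2:**
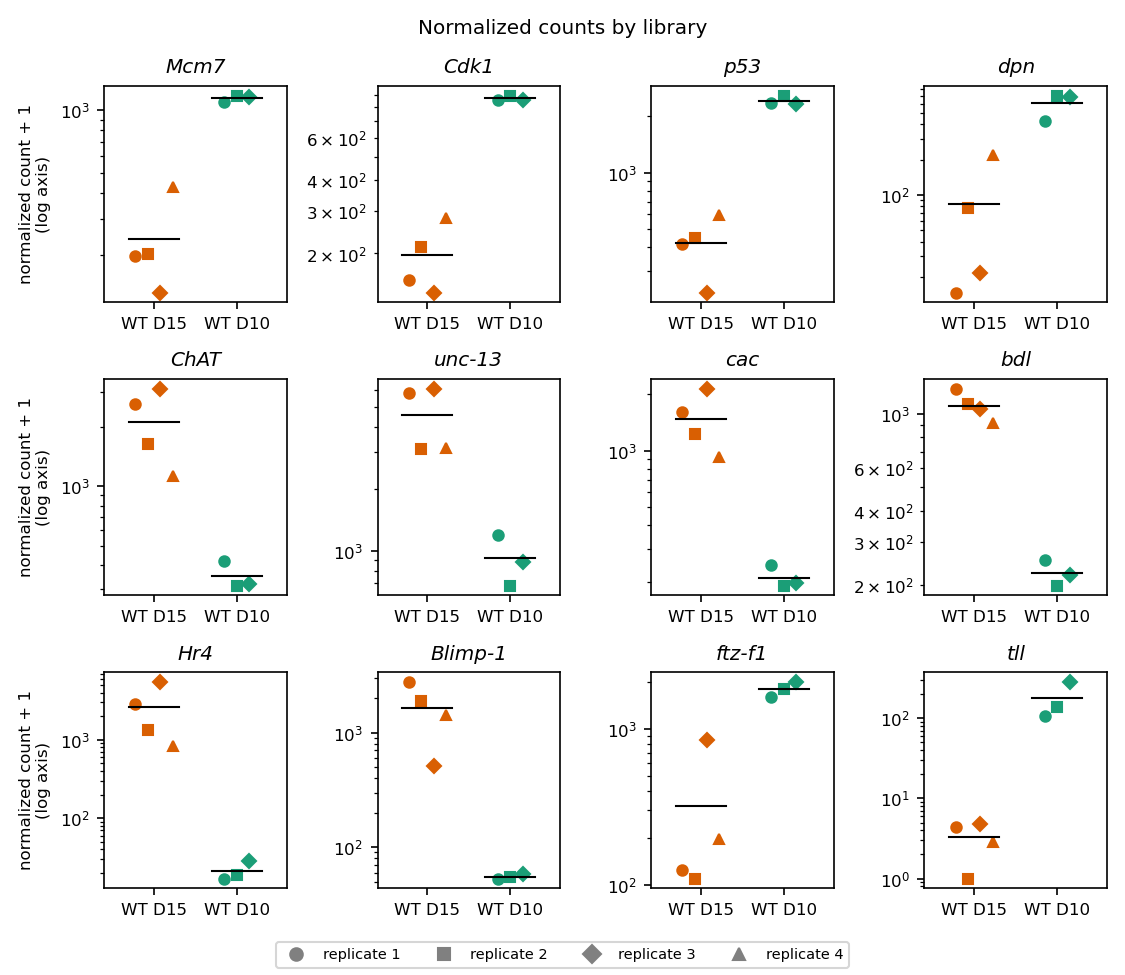
Normalized count plus 1 of 12 genes in each library (log axes), WT D15 on the left (4 libraries) and WT D10 on the right (3 libraries); marker shapes give the replicate number and bars the stage mean. The top row holds proliferation and precursor genes that were lower at D15, the middle row neuronal genes that were higher, and the bottom row hormone pathway genes, of which Hr4 and Blimp-1 were higher and ftz-f1 and tll lower.

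Of the lists counted, the Or genes had the largest share called higher. Of the 376 tuning Or genes in the count files, 359 could be tested, and 243 of them were higher at D15, 14 were lower, and the others did not pass. With orco counted, 67.8% of 360 Or genes were higher and 3.89% lower, against 15.2% and 10.6% over all genes tested. Of the 359, 99 had at most 3 counts in every WT D10 library. Orco itself is given further below. Since reads that fit several places are not counted and the array genes are alike, the value of a single array gene is uncertain. Tuning Or genes together took 0.188%, 0.116%, 0.133%, and 0.0983% of the gene counts of WT D15 replicates 1, 2, 3, and 4, against 0.0525%, 0.0417%, and 0.0574% in WT D10 replicates 1, 2, and 3. The number of tuning Or genes with more than 3 counts was 375, 335, 370, and 375 in the WT D15 libraries and 226, 224, and 213 in the WT D10 libraries. In 239 of the 360 tested Or genes, orco included, every WT D15 library was above every WT D10 library, as in 19.3% of all genes tested. The median tuning Or gene had 45.0 normalized counts at D15 and 4.56 at D10. The Or signal was thus spread over nearly all genes of the family at D15, and over fewer of them at D10. WT D15 replicate 3, with 370 such genes, was the shallowest of the 7 libraries.

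Given here are the 6 largest rises among tuning Or genes with a mean of at least 100 normalized counts at D15. All but HsOr280 were at the counting floor at D10. Some genes with lower means had fitted rises as large, such as HsOr269 with a log2 fold change of 9.37. HsOr207 had 277, 60.6, 131 and 71.5 normalized counts in WT D15, against 0, 0 and 0 in WT D10. HsOr211 had 234, 102, 136 and 85 normalized counts in WT D15, against 0, 0 and 0 in WT D10. With the floor of 3 counts per library in place of 0, the D15 mean of HsOr207 was at least 64.9-fold higher and that of HsOr211 at least 66.9-fold higher. The bounds that follow are for D15 means as well, and single libraries can lie below them. HsOr210 had 241, 181, 146 and 120.2 normalized counts in WT D15, against 0.696, 0 and 0.76 in WT D10, which is at least 82.8-fold higher. HsOr302 had 272, 230.0, 230.5 and 118 normalized counts in WT D15, against 1.39, 0.622 and 0 in WT D10, at least 102-fold higher. Every WT D15 library of these genes was far above the floor, and no WT D10 library exceeded 1.5. HsOr281 had 163, 138, 146 and 86.1 normalized counts in WT D15, against 1.39, 1.87 and 0.76 in WT D10 (at least 64.2-fold higher), and HsOr280 had 248, 154, 248 and 93.3 normalized counts in WT D15, against 2.78, 2.49 and 0.76 in WT D10 (log2 fold change 6.39, SE 0.81, edgeR adjusted p = 2.76e-05).

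The change differed between the arrays. Over all genes tested, 15.2% were higher and 10.6% lower, and over the 360 Or genes 67.8% and 3.89%. Of 15 scaffolds with 8 or more tuning Or genes, the array of 58 genes from HsOr2 to HsOr59 had 27 higher, 8 lower, and 21 that did not pass among 56 tested, with a median log2 fold change of 1.65. The array of 39 genes from HsOr131.1 to HsOr170 had 18 higher, 5 lower, and 16 that did not pass, with a median of 1.97. These 2 arrays held 13 of the 14 Or genes that were lower, and the remaining one was HsOr187. The lower genes, 8 of 56 and 5 of 39, are shares not far from the 10.6% over all genes tested. Summed over the tested members, the array of 58 genes had 2622 normalized counts at D15 and 2486 at D10, and that of 39 genes had 1589.6 at D15 and 1649 at D10, so the sums were close while the members differed. In contrast, the array of 37 genes from HsOr87 to HsOr121 had 33 higher and 0 lower, with a median of 4.40, and that of 30 genes from HsOr273 to HsOr302 had 27 higher and 0 lower, with a median of 4.84. Outside the 2 arrays with lower genes, 198 of 264 tested genes were higher. An array of 9 genes from HsOr78 to HsOr86 had 0 of 9 members called, with a median of 0.74. The arrays were set apart after their values were seen, and the difference between them was not tested.

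Of the 17 tuning Or genes with a mean of 100 or more normalized counts at D10, 9 were lower at D15 and 0 were higher (DESeq2: 11 and 0; edgeR at an unadjusted p below 0.05: 13 and 0), and 12 of the 17 lie in the arrays of 58 and 39 genes. Over all genes tested, 10.6% were lower and 15.2% higher, and over all Or genes 3.89% were lower. This set was taken by its high D10 level, which favors falls, and after the values were seen. The counts under each of the tests therefore describe it and are no test. The 9 are the fallen genes named here. HsOr155, in the array of 39, had 109, 33, 73 and 40.1 normalized counts in WT D15, against 539.9, 452 and 526 in WT D10 (log2 fold change −3.04, SE 0.57, edgeR adjusted p = 0.000575). HsOr169, in the same array, had 37.8, 6.24, 19.2 and 13.9 normalized counts in WT D15, against 118.98, 103.91 and 157 in WT D10 (log2 fold change −2.76, SE 0.73, edgeR adjusted p = 0.008). In the array of 58, HsOr52 had 22.3, 1.78, 16.64 and 70 normalized counts in WT D15, against 167, 106 and 216 in WT D10 (log2 fold change −2.56, SE 0.67, edgeR adjusted p = 0.00726), and −3.63 without WT D15 replicate 4. HsOr56 had 65.3, 38.3, 60.2 and 50.9 normalized counts in WT D15, against 165, 127 and 254 in WT D10 (log2 fold change −1.81, SE 0.41, edgeR adjusted p = 0.00296). These 4 genes fell in every library, while most members of the 2 arrays rose or did not pass. Many of the lower genes had close ID numbers. In the array of 58 these were HsOr50, HsOr52, HsOr53, HsOr55, HsOr56, and HsOr58, apart from HsOr5 and HsOr6. In the array of 39 they were HsOr150, HsOr151, HsOr153, and HsOr155, apart from HsOr169. HsOr55 had 51.6, 28.5, 58.9 and 31.1 normalized counts in WT D15, against 131, 94.6 and 170.2 in WT D10 (log2 fold change −1.69, SE 0.43, edgeR adjusted p = 0.00616). HsOr58 had 106, 133, 71.7 and 86.1 normalized counts in WT D15, against 196, 229 and 424 in WT D10 (log2 fold change −1.56, SE 0.40, edgeR adjusted p = 0.00696), with the call lost without WT D10 replicate 3 (adjusted p = 0.072). HsOr5 and HsOr53 had log2 fold changes of −1.29 and −1.45, and each lost its call without 1 WT D10 library (HsOr5 without replicate 3, adjusted p = 0.0522; HsOr53 without replicate 1, adjusted p = 0.0785). HsOr50 (−1.49) lost its call in 5 of the 7 fits. At D15, 47 tuning Or genes averaged 100 or more. The count of 14 lower Or genes was 8 without WT D10 replicate 1 and 7 without WT D10 replicate 3. The levels of the fallen genes stayed low later, with HsOr155 at 81.7 normalized counts at D20 and 65.1 at D25 on average.

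**Figure D3:**
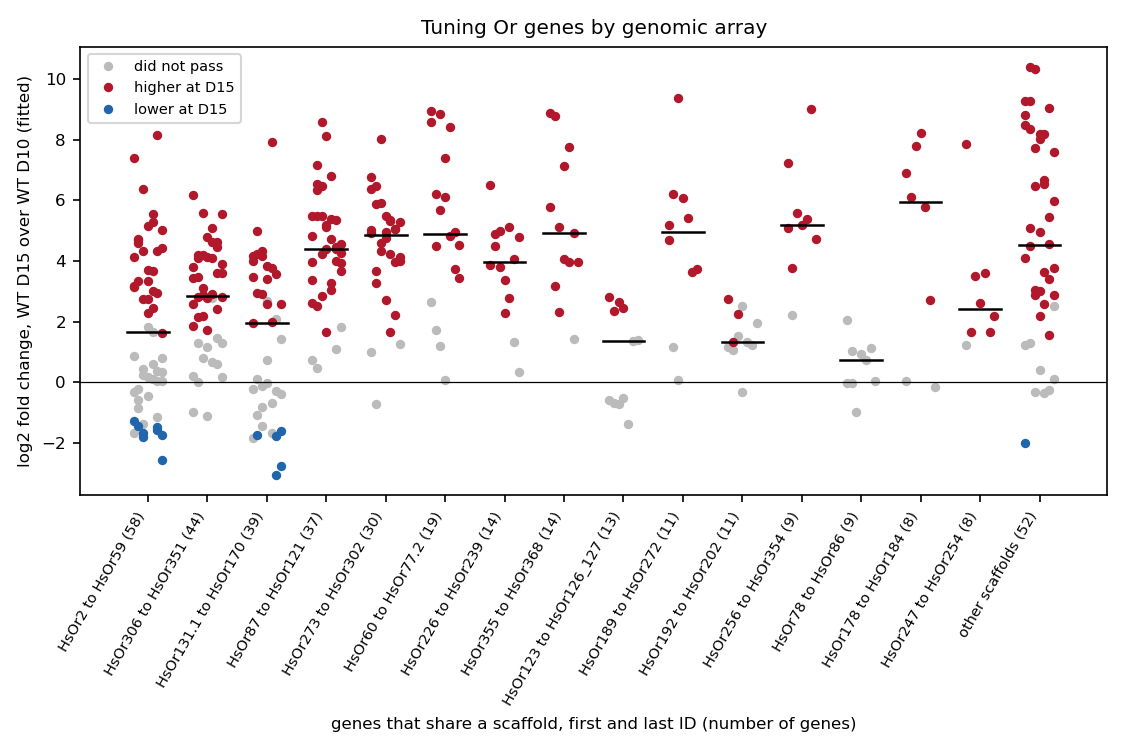
Fitted log2 fold change of WT D15 over WT D10 for each tested tuning Or gene, grouped by scaffold, with the first and last gene and the number of genes of each array. Points are genes, red higher, blue lower, and gray not past the threshold; black bars are medians. Blue points sit in the arrays of 58 and 39 genes and 1 among the other scaffolds, and fitted values of genes at the floor at D10 depend on the prior count.

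orco had 8465, 10869, 3502 and 11921 normalized counts in WT D15, against 4248, 2562 and 3584 in WT D10 (log2 fold change 1.28, SE 0.46, edgeR adjusted p = 0.0454). WT D15 replicate 3 lay within the range of the WT D10 libraries while the other 3 were above it, and the call was lost in 6 of the 7 fits that left out 1 library, with adjusted p-values of up to 0.169. Against the summed tuning Or genes, orco stood at 0.298, 0.637, 0.149, and 0.839 of their normalized counts in WT D15 replicates 1, 2, 3, and 4, and at 0.552, 0.402, and 0.407 in WT D10 replicates 1, 2, and 3. The WT D15 values of this ratio lay on both sides of those of WT D10, so orco and the tuning genes did not keep a fixed proportion across libraries. The libraries with the largest share of tuning Or counts, replicates 1 and 3, had the lowest orco counts of D15.

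Calls among Ir and Gr genes were few and went in both directions for the co-receptors. Of these, HsIr93a was added here to the co-receptor genes that the study names, among which only HsIr8a was called. Among the Ir co-receptor genes, HsIr93a had 191, 118, 70.4 and 59.2 normalized counts in WT D15, against 18.1, 13.7 and 16 in WT D10 (log2 fold change 2.73, SE 0.50, edgeR adjusted p = 0.000523). HsIr8a, whose fly counterpart serves acid-sensing Ir neurons, had 115, 111, 124 and 156 normalized counts in WT D15, against 216, 259 and 321 in WT D10 (log2 fold change −1.11, SE 0.35, edgeR adjusted p = 0.0241). The first was higher in all WT D15 libraries and the second lower, although the call of HsIr8a was lost without WT D10 replicate 2 or 3 or WT D15 replicate 1, 2, or 3 (adjusted p = 0.058, 0.103, 0.0543, 0.0548, and 0.0508). The co-receptor genes HsIr25a.1, HsIr25a.2, and HsIr76b had fitted log2 fold changes of 1.48, −0.08, and 0.17 and did not pass (edgeR adjusted p = 0.226, 0.944, and 0.773). That of HsIr25a.2 changed sign without WT D15 replicate 2 or 4, and that of HsIr76b without WT D15 replicate 1. Of 14 tuning Ir genes tested, 5 were higher and 0 lower (DESeq2: 7 and 0; edgeR at an unadjusted p below 0.05: 8 and 0), with a median log2 fold change of 1.62 and a share of 35.7% higher, against 15.2% over all genes. The count was 2 without WT D10 replicate 2, 3 without WT D10 replicate 3, 2 without WT D15 replicate 3, and 3 under scaling by library size only. HsIr75u.2 had 120.3, 53.5, 51.2 and 25.8 normalized counts in WT D15, against 4.17, 8.71 and 3.8 in WT D10 (log2 fold change 3.40, SE 0.62, edgeR adjusted p = 0.000467). HsIr75f.2 had 52.4, 38.3, 32 and 22.8 normalized counts in WT D15, against 9.74, 6.84 and 10.6 in WT D10 (log2 fold change 1.94, SE 0.32, edgeR adjusted p = 0.000195). Both were named after their values were seen. Of 9 Gr genes, 2 were called higher, 22.2%. HsGr5 had 48.1, 0, 2380.2 and 0.749 normalized counts in WT D15, against 0.696, 3.73 and 0 in WT D10 (log2 fold change 8.45, SE 2.81, edgeR adjusted p = 0.0304). Its call rested on WT D15 replicate 3, without which the adjusted p was 0.327, and was also lost without any one of the WT D10 libraries. Without WT D10 replicate 2, 0 Gr genes were called (DESeq2 with all libraries: 3; edgeR with all libraries at an unadjusted p below 0.05: 3). Rh50, the ammonium transporter gene of a fly class of ammonia-sensing neurons, had 429.7, 49.9, 11.5 and 19.1 normalized counts in WT D15, against 21.6, 12.4 and 6.84 in WT D10 (log2 fold change 3.16, SE 1.04, edgeR adjusted p = 0.0284), and rested likewise on WT D15 replicate 1, without which the adjusted p was 0.408; it was lost without any WT D10 library as well. nompC, a mechanosensory channel, in the entry the study used as a marker, had 19.8, 25, 21.8 and 46.1 normalized counts in WT D15, against 67.5, 46.7 and 64.6 in WT D10 (log2 fold change −1.11, SE 0.51, edgeR adjusted p = 0.116).

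Of 38 cilium genes tested, 9 were lower and 1 was higher, with a median log2 fold change of −0.40 and a share of 23.7% lower against 10.6% over all genes. The count of 9 was 5 without WT D10 replicate 1, WT D10 replicate 3, or WT D15 replicate 3, and 14 with sequencing batch in the model. dila, a protein of the ciliary base in flies, had 336, 206, 489 and 269.7 normalized counts in WT D15, against 823, 654 and 995 in WT D10 (log2 fold change −1.39, SE 0.31, edgeR adjusted p = 0.00219). Poc1, a centriole protein, had 198, 317, 152 and 242 normalized counts in WT D15, against 509, 509 and 516 in WT D10 (log2 fold change −1.21, SE 0.21, edgeR adjusted p = 0.000364). IFT46, of the transport complex that carries cargo toward the ciliary tip, had 814, 687, 334 and 865 normalized counts in WT D15, against 1417, 1072 and 1587 in WT D10 (log2 fold change −1.05, SE 0.28, edgeR adjusted p = 0.00748). Klp68D, a subunit of the kinesin-2 motor of that transport, had 707, 705, 681 and 1016 normalized counts in WT D15, against 1705, 1401 and 1931 in WT D10 (log2 fold change −1.16, SE 0.29, edgeR adjusted p = 0.00559). rempA, of the complex that returns cargo to the base, had 709, 1100.2, 653 and 1251 normalized counts in WT D15, against 1729.7, 1551 and 1608 in WT D10 (log2 fold change −0.86, SE 0.21, edgeR adjusted p = 0.00564). The groups did not overlap in these 5 genes, and the falls were smaller than those of the replication genes named above. tilB, needed for motile mechanosensory cilia in flies, had 87.7, 89.2, 293 and 33 normalized counts in WT D15, against 22.3, 21.8 and 12.2 in WT D10 (log2 fold change 2.67, SE 0.79, edgeR adjusted p = 0.0165). Its call was lost without WT D10 replicate 2 or 3 or WT D15 replicate 3 (adjusted p = 0.051, 0.0783, and 0.0818). kl-2, an axonemal dynein heavy chain of fly sperm and one of the 10 largest falls among named genes, had 12.9, 0, 11.5 and 8.61 normalized counts in WT D15, against 131, 210.3 and 197 in WT D10 (log2 fold change −4.48, SE 0.83, edgeR adjusted p = 0.000561).

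RNA of ecdysone cascade genes differed in both directions between the 2 stages. Of 28 genes of hormone synthesis and response, 10 were higher and 4 lower, 35.7% and 14.3%, against 15.2% and 10.6% over all genes tested. The median log2 fold change of the list was 0.08, against 0.03 over all genes. The counts were 10 and 4 or within a factor of 1.5 of that in every fit that left out 1 library. E75, an early nuclear receptor gene that ecdysone induces directly, had 13127, 24347, 27235 and 25258 normalized counts in WT D15, against 3144, 3043 and 4361 in WT D10 (log2 fold change 2.63, SE 0.50, edgeR adjusted p = 0.000692). Hr3, which follows in the cascade, had 10406, 9840.5, 6403 and 1579 normalized counts in WT D15, against 199.7, 175 and 347 in WT D10 (log2 fold change 4.82, SE 0.77, edgeR adjusted p = 0.000159). Hr4, a receptor gene of the same wave, had 2866, 1340.1, 5502 and 829.6 normalized counts in WT D15, against 16, 18 and 27.4 in WT D10 (log2 fold change 6.95, SE 1.29, edgeR adjusted p = 0.000571). The WT D15 libraries were all well above WT D10 for these 3, with replicate 4 the lowest for Hr3 and Hr4. Blimp-1, a repressor that in flies times the next step, ftz-f1, had 2778, 1898, 507 and 1425 normalized counts in WT D15, against 52.2, 54.1 and 57 in WT D10 (log2 fold change 4.87, SE 0.96, edgeR adjusted p = 0.000923). ftz-f1, the nuclear receptor of mid-prepupal competence in flies, had 124, 109, 844 and 195 normalized counts in WT D15, against 1587, 1805 and 1996 in WT D10 (log2 fold change −2.56, SE 0.60, edgeR adjusted p = 0.00335). Across the WT D15 libraries, replicate 3 had the least Blimp-1 and the most ftz-f1; without it the fold change of ftz-f1 was −3.69. usp, the partner of the ecdysone receptor, had 1029.5, 379, 1006 and 733 normalized counts in WT D15, against 2865, 3231 and 3437 in WT D10 (log2 fold change −2.06, SE 0.43, edgeR adjusted p = 0.00141). tll, a nuclear receptor gene of the early embryo and of neural precursors in flies, had 3.44, 0, 3.84 and 1.87 normalized counts in WT D15, against 104.37, 138 and 283 in WT D10 (log2 fold change −6.30, SE 0.90, edgeR adjusted p = 6.88e-05). br, whose product specifies the pupal stage in insects, had 14.6, 23.2, 26.9 and 19.8 normalized counts in WT D15, against 55.7, 85.9 and 88.1 in WT D10 (log2 fold change −1.91, SE 0.59, edgeR adjusted p = 0.021), with the call lost without WT D10 replicate 2 or 3 or WT D15 replicate 1 (adjusted p = 0.0632, 0.0658, and 0.0557).

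Of the ecdysone synthesis genes on the list, nvd, dib, sad, and shd could be tested, and sad and shd were higher. nvd, of the first step, and dib, a P450 of a step before sad, had fitted log2 fold changes of −0.76 and 0.01 that did not pass (edgeR adjusted p = 0.406 and 0.993). sad, a P450 of the last but one hydroxylation step, had 2263, 7701, 855 and 2545 normalized counts in WT D15, against 209, 179 and 194 in WT D10 (log2 fold change 4.06, SE 0.67, edgeR adjusted p = 0.000197), and 3.24 without WT D15 replicate 2. shd, the P450 that turns ecdysone into 20-hydroxyecdysone, had 1253, 5356, 6180.4 and 3159 normalized counts in WT D15, against 101, 142 and 109 in WT D10 (log2 fold change 5.03, SE 1.12, edgeR adjusted p = 0.00234). ImpE1, an ecdysone-induced gene of fly imaginal discs, had 2498, 4199, 412 and 4456 normalized counts in WT D15, against 255, 334 and 65.3 in WT D10 (log2 fold change 3.68, SE 0.83, edgeR adjusted p = 0.00254). Hr38, whose product also pairs with that of usp, had 475, 435, 3868 and 554 normalized counts in WT D15, against 77.9, 87.1 and 86.6 in WT D10 (log2 fold change 3.93, SE 0.86, edgeR adjusted p = 0.00213). The fold change was 2.50 without WT D15 replicate 3. nvd, dib, br, shd, ImpE1, and Hr38 were picked after their values were seen. At the later WT stages the genes parted. From the youngest stage to the oldest, D10 to D25, the mean normalized counts of Hr3 were 241, 7057, 11905, and 13848. Those of Blimp-1 were 54.4, 1652, 158, and 152. Those of ftz-f1 were 1796, 318, 2389, and 2694. D15 was thus a peak for Blimp-1 and a low point for ftz-f1 among the sampled days, and Hr3 stayed high; the later steps were not tested here.

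**Figure D4:**
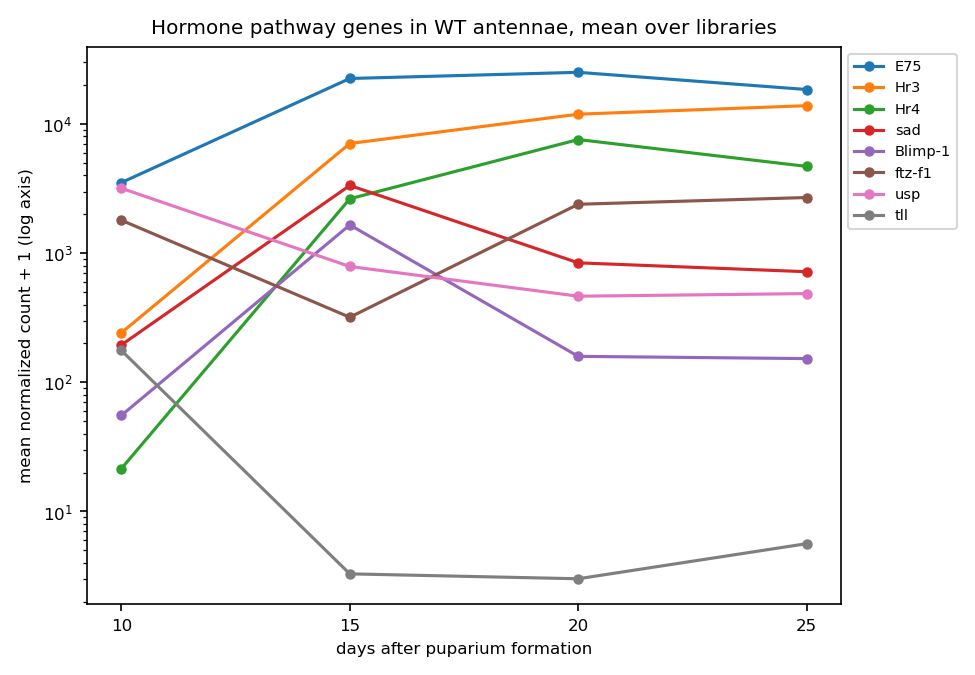
Mean normalized count plus 1 (log axis) of 8 hormone pathway genes in WT antennae against age in days after puparium formation (3 libraries at D10 and 4 at each later stage). E75, Hr3, and Hr4 stay high after D15, Blimp-1 and sad are highest at D15, ftz-f1 is lowest at D15, and usp and tll stay low.

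Cpr92F, CPR1, and CPR27, which encode structural cuticle proteins, were among the 10 named genes with the largest falls, and no WT D15 library of them reached 200 normalized counts. Cpr92F had 24.9, 57.1, 55.1 and 44.9 normalized counts in WT D15, against 15126, 24459 and 24129 in WT D10 (log2 fold change −8.92, SE 2.07, edgeR adjusted p = 0.00325). CPR1 had 38.7, 21.4, 43.5 and 31.1 normalized counts in WT D15, against 1359, 3903 and 21706 in WT D10 (log2 fold change −8.11, SE 0.79, edgeR adjusted p = 6.21e-06), and −6.35 without WT D10 replicate 3. CPR27 had 35.2, 182, 155 and 159.5 normalized counts in WT D15, against 10259, 22078 and 66758 in WT D10 (log2 fold change −8.00, SE 1.06, edgeR adjusted p = 3.49e-05), and −6.98 without that library. In these genes the WT D10 libraries themselves differed, with replicate 3 the highest or near it. Y-f, a relative of fly yellow-f, an enzyme of melanin formation, had 441, 189.9, 58.9 and 40.4 normalized counts in WT D15, against 8353, 10952 and 12696 in WT D10 (log2 fold change −5.92, SE 0.76, edgeR adjusted p = 2.93e-05), and −6.84 without WT D15 replicate 1. The 3 largest falls among genes without a symbol were larger still, with LOC105189257 at 0.859, 0.892, 32 and 1.87 normalized counts in WT D15, against 9305, 24800.4 and 62369 in WT D10, LOC105183875 at 21.5, 16, 175 and 42.3 normalized counts in WT D15, against 113047, 162409 and 166746 in WT D10, and LOC109504425 at 13.8, 41, 85.8 and 22.8 normalized counts in WT D15, against 32401, 61569 and 181641 in WT D10. Their log2 fold changes over the fits that left out 1 library were −14.47 to −11.23, −12.45 to −10.92, and −11.83 to −10.25. No WT D15 library of these genes reached 200 normalized counts. Qbp-1 had 9.45, 0, 12.8 and 20.2 normalized counts in WT D15, against 1879, 1827 and 107 in WT D10 (log2 fold change −6.87, SE 0.90, edgeR adjusted p = 3.18e-05).

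Of the 38 cuticle and pigment genes in the list, 13 were higher at D15 and 1 lower, 34.2% against the background of 15.2%, with a median log2 fold change of 1.76, or 1.48 with the 3 genes at the floor set to their bound. Cpr92F, CPR1, CPR27, and Y-f are not on this list, so its count leaves out these falls. This count depends on single libraries. It was 6, 7, and 6 without WT D10 replicates 1, 2, and 3, and 8 without WT D15 replicate 3, in which fit 6 members were lower in place of 1. It was 8 with the 15 WT libraries in the model and 5 with the 7. Relative to the WT D10 mean, the geometric mean over the list was 1.68, 1.32, 6.95, and 0.96 in WT D15 replicates 1, 2, 3, and 4, against 0.86, 0.96, and 1.02 in WT D10 replicates 1, 2, and 3. Some members were higher in every WT D15 library. yellow-b, of the yellow family, had 2258, 1581, 9704 and 860.3 normalized counts in WT D15, against 75.8, 65.3 and 95.7 in WT D10 (log2 fold change 5.45, SE 0.69, edgeR adjusted p = 2.76e-05), and 4.26 without WT D15 replicate 3. Cht7, a chitinase that shapes the chitin layer, had 11508, 5802, 29837 and 6594 normalized counts in WT D15, against 1399.9, 1565 and 1883 in WT D10 (log2 fold change 3.00, SE 0.54, edgeR adjusted p = 0.000435). f, the actin bundler of bristles and hairs, had 6254, 3299, 11584 and 850.2 normalized counts in WT D15, against 550.4, 518 and 613 in WT D10 (log2 fold change 3.24, SE 0.73, edgeR adjusted p = 0.00269). sha, which acts in hair formation in flies, had 67, 258, 746 and 660.3 normalized counts in WT D15, against 43.1, 28.6 and 28.1 in WT D10 (log2 fold change 3.65, SE 0.92, edgeR adjusted p = 0.00591). Without WT D15 replicate 3, Cht7 and f had log2 fold changes of 2.26 and 2.58.

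Other members split the WT D15 libraries among themselves. dyl, neo, and tyn encode zona pellucida domain proteins of the matrix that coats the apical cell surface. dyl had 13369, 156, 54746 and 4.12 normalized counts in WT D15, against 87.7, 106 and 67.6 in WT D10. neo had 5605, 80450.0, 707 and 99049.7 normalized counts in WT D15, against 2371, 3068 and 2333 in WT D10, and tyn had 12119.9, 60338, 761 and 97939 normalized counts in WT D15, against 5756, 5823 and 3302 in WT D10. Replicates 1 and 3 were the high libraries for dyl, and replicates 2 and 4 for neo and tyn. Their log2 fold changes were 7.55, 4.12, and 3.07 (edgeR adjusted p = 0.0298, 0.0368, and 0.0292), and each call was lost without any one of the WT D10 libraries and without the WT D15 libraries in which the gene was high, except WT D15 replicate 1 for dyl. Ddc, the dopa decarboxylase of cuticle tanning, had 42.1, 38.3, 13021 and 21.7 normalized counts in WT D15, against 43.8, 33.6 and 58.5 in WT D10. The call of Ddc (adjusted p = 0.0271) rested on WT D15 replicate 3, without which the fitted log2 fold change was −0.47 and the adjusted p 0.823. It was also lost without any one of the WT D10 libraries. Vajk4, of a cuticle protein family, had 33.5, 125, 27999 and 70.8 normalized counts in WT D15, against 26.4, 11.8 and 20.5 in WT D10. Its call likewise ended without WT D15 replicate 3 (adjusted p = 0.339), and also without WT D10 replicate 2 or 3 (adjusted p = 0.0573 and 0.0546). Osi2, of the Osiris family of transient epidermal genes, had 958, 495, 16962 and 125 normalized counts in WT D15, against 27.8, 18.7 and 9.12 in WT D10 (log2 fold change 7.89, SE 1.497, edgeR adjusted p = 0.000683); without WT D15 replicate 3 it had 4.76. dyl, neo, tyn, and Ddc were picked after their values were seen. At D20 the mean normalized counts were 463 for dyl, 902 for neo, 357 for tyn, 37.3 for Osi2, 3042 for Ddc, and 102154 for Vajk4, so the first 4 were well below their D15 means and the last 2 were not.

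Other large rises were also uneven across libraries. Nep2, a secreted or membrane peptidase of the neprilysin family, was high in all WT D15 libraries, with 21461, 14601, 35699.5 and 3489 normalized counts in WT D15, against 48, 34.8 and 40.3 in WT D10 (log2 fold change 8.78, SE 1.08, edgeR adjusted p = 2.3e-05). flz, a secreted serine protease of tracheal cuticle in flies, had 8473, 979.9, 7445 and 278 normalized counts in WT D15, against 23, 17.4 and 16 in WT D10 (log2 fold change 7.77, SE 2.03, edgeR adjusted p = 0.00749). Nt5c had 1818, 144, 48119 and 98.5 normalized counts in WT D15, against 78.6, 50.4 and 61.5 in WT D10 and NT1 had 2233, 742, 32518 and 688 normalized counts in WT D15, against 69.6, 42.9 and 34.2 in WT D10; without WT D15 replicate 3 their log2 fold changes were 3.38 and 4.59, against 7.56 and 7.47 with it. Among genes without a symbol, LOC105186822 had 38190.1, 924, 652 and 4.12 normalized counts in WT D15, against 0.696, 1.87 and 3.04 in WT D10 (12.27, and 8.03 without WT D15 replicate 1), and LOC105181624 had 35823, 11813, 3451 and 540.4 normalized counts in WT D15, against 10.4, 8.71 and 3.04 in WT D10 (10.68, and 9.39 without that library). LOC105189364 had 86.8, 120.4, 33389.7 and 21.3 normalized counts in WT D15, against 10.4, 5.6 and 2.28 in WT D10, with the call lost without WT D15 replicate 3 (adjusted p = 0.274) or any WT D10 library. No WT D10 library of these last 3 genes exceeded 10.4 normalized counts.

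**Figure D5:**
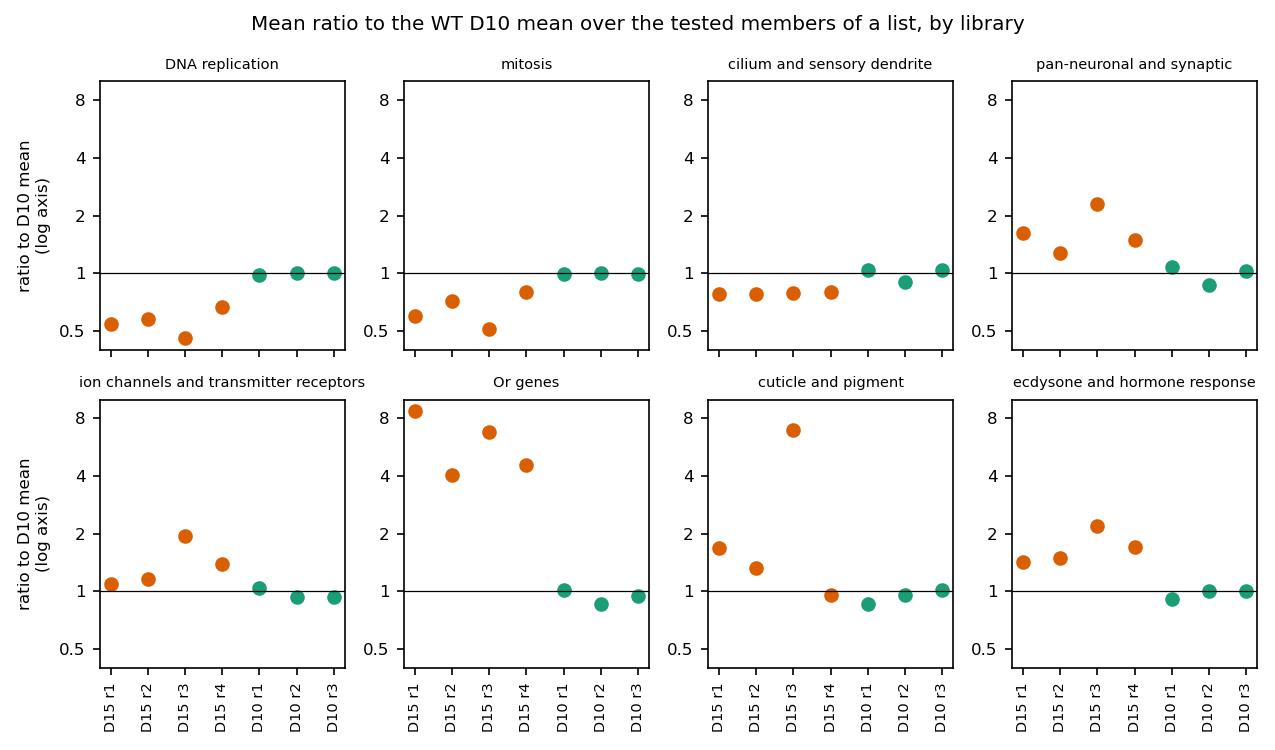
Geometric mean over the tested members of a list of the ratio (normalized count + 1) to (WT D10 mean + 1), in each library, WT D15 replicates 1 to 4 left of WT D10 replicates 1 to 3 (log axes; the line is a ratio of 1). Replicate 3 of WT D15 is lowest for DNA replication and mitosis and highest for synaptic, channel, cuticle, and hormone genes, with a ratio of 6.95 for cuticle genes, and replicate 1 is highest for Or genes.

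Lists of genes for the other cell types that an antenna can hold were counted as well. Of 17 glial and septate junction genes, 4 were higher and 0 lower (DESeq2: 3 and 0; edgeR at an unadjusted p below 0.05: 4 and 1), with a median log2 fold change of 0.14, and repo is given above. The share of 23.5% higher stands against the background of 15.2%. Gs2, the glutamine synthetase of glia, had 3389, 810.5, 2912 and 821 normalized counts in WT D15, against 306, 341 and 315 in WT D10 (log2 fold change 2.57, SE 0.55, edgeR adjusted p = 0.00174). zyd, a calcium exchanger of glia in flies, had 375, 379, 296 and 514 normalized counts in WT D15, against 113, 153 and 89.6 in WT D10 (log2 fold change 1.67, SE 0.34, edgeR adjusted p = 0.00125). moody, a receptor of the blood-brain barrier, had 285, 244, 1942 and 226 normalized counts in WT D15, against 128, 144 and 109 in WT D10 (log2 fold change 2.35, SE 0.55, edgeR adjusted p = 0.00363), and 0.94 without WT D15 replicate 3. Gli had 0.56, with its call lost in 4 of the 7 fits. The summed level of the glial list was 37825 to 56061 normalized counts in WT D15 libraries and 37463 to 38010 in WT D10 libraries. The geometric mean of its members relative to the WT D10 mean was 1.17 to 1.62 in WT D15 libraries and 0.976 to 1.01 in WT D10 libraries. Of 14 muscle genes, 0 were called in either direction (DESeq2: 1 higher; edgeR at an unadjusted p below 0.05: 2 higher), with a median of 0.78, close to the 0.76 of the synaptic list, against 0.03 over all genes tested. The summed level of the muscle list was 41229 to 44289 in WT D15 libraries and 28866 to 34475 in WT D10 libraries. The sum was thus higher in every WT D15 library without a member that passed. The geometric mean of its members relative to the WT D10 mean overlapped between stages. It was 1.48, 1.22, 2.17, and 1.16 in WT D15 replicates 1, 2, 3, and 4, against 0.92, 1.28, and 0.70 in WT D10 replicates 1, 2, and 3.

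Of 10 support cell genes, 2 were higher and 1 was lower, with a median of 0.04. The shares of 20% and 10% compare with 15.2% and 10.6% over all genes tested. Ets65A had 516, 589, 1134 and 925 normalized counts in WT D15, against 214, 219 and 259 in WT D10 (log2 fold change 1.73, SE 0.42, edgeR adjusted p = 0.00492), and the others called were sha and Lim1. sv, the study's support cell marker, had 426, 1313, 306 and 1882 normalized counts in WT D15, against 600.5, 528 and 679 in WT D10 (log2 fold change 0.67, SE 0.72, edgeR adjusted p = 0.539), high in WT D15 replicates 2 and 4 and low in replicates 1 and 3. Among 9 epithelial and tracheal genes, uif, an apical membrane protein gene, was higher, with 6927, 5922, 8641 and 5631 normalized counts in WT D15, against 1022, 1019 and 1074 in WT D10 (log2 fold change 2.66, SE 0.75, edgeR adjusted p = 0.0123), and the epithelial factor grh had 696, 1287, 2291 and 3719 normalized counts in WT D15, against 1467, 1954 and 1308 in WT D10 (log2 fold change 0.30, SE 0.89, edgeR adjusted p = 0.846), a change whose sign turned without WT D15 replicate 4. Of 10 hemocyte and fat body genes, 1 was higher and 1 lower, 10% each, against 15.2% and 10.6% over all genes tested. The lower one was Tsf1, an iron carrier of the hemolymph, with 565, 747, 912 and 1218 normalized counts in WT D15, against 13587, 10065 and 19357 in WT D10 (log2 fold change −4.10, SE 0.53, edgeR adjusted p = 3.18e-05). The higher one was the lipase gene bmm, with 388, 354, 303 and 199 normalized counts in WT D15, against 139.9, 121 and 118.52 in WT D10 (log2 fold change 1.25, SE 0.35, edgeR adjusted p = 0.0126), whose call was lost without WT D10 replicate 3 (adjusted p = 0.0547). How far the makeup of cells in a library bears on the lists above was not tested.

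Genes of energy metabolism changed in both directions. Of 29 genes of glycolysis and the citric acid cycle, 8 were lower (27.6%) and 4 higher (13.8%), with a median of −0.15. Over all genes tested, 10.6% were lower and 15.2% higher. Of 43 genes of oxidative phosphorylation, 2 were lower (4.65%) and 1 higher (2.33%), with a median of −0.18. Without WT D10 replicate 2, 5 of the 29 were lower, and 5 were under scaling by library size only. Eno, the enolase, had 2439, 2967, 1186 and 3779 normalized counts in WT D15, against 6620.4, 6760.4 and 6304 in WT D10 (log2 fold change −1.38, SE 0.28, edgeR adjusted p = 0.00107). kdn, the citrate synthase, had 968, 764, 1056 and 861 normalized counts in WT D15, against 1797, 1765 and 2007 in WT D10 (log2 fold change −1.07, SE 0.20, edgeR adjusted p = 0.000556). SdhA, a subunit of succinate dehydrogenase, had 1446, 2760.4, 827 and 1202 normalized counts in WT D15, against 554, 584 and 524 in WT D10 (log2 fold change 1.44, SE 0.32, edgeR adjusted p = 0.00205). Idh had 4358, 6958, 1988 and 4885 normalized counts in WT D15, against 2126, 1985 and 1816 in WT D10 (log2 fold change 1.16, SE 0.27, edgeR adjusted p = 0.00386), with WT D15 replicate 3 at the level of WT D10. The isocitrate dehydrogenase genes Idh3a and Idh3b were lower. Their log2 fold changes were −0.75 to −0.50 and −0.76 to −0.60 over the fits that left out 1 library. Genes of this list, among them kdn and SdhA of the citric acid cycle, therefore moved in opposite directions. The aldolase gene Ald1 had 2367, 1190.3, 22042 and 2145 normalized counts in WT D15, against 1432, 1146 and 1242 in WT D10. Its call was lost without WT D15 replicate 3 (adjusted p = 0.327), and also without WT D10 replicate 2 or 3 (adjusted p = 0.0604 and 0.0582). The 2 lower genes of oxidative phosphorylation, ATPsynbeta (−0.48) and blw (−0.52), lost their calls in 5 and 4 of the 7 fits. Of 57 ribosomal protein genes, 0 were called in either direction (DESeq2: 0; edgeR at an unadjusted p below 0.05: 0), with a median of −0.17.

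Most of the differences between D10 and D15 were still there at D20. On the scale of log2 of the mean normalized count plus 1, the WT D20 mean lay nearer to the D15 mean than to the D10 mean, or beyond it, for 1392 of the 1682 higher genes (82.8%) and for 1049 of the 1170 lower genes (89.7%). For the lower genes of DNA replication and mitosis this held for all 24 and all 25, and for the higher synaptic and channel genes for all 11 and all 13. It held for 238 of the 244 Or genes that were higher, orco counted among the 244 and not among the tuning genes above. It held for 7 of the 13 higher cuticle genes. The genes were chosen for their D15 values, so these shares describe the members and were not tested.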

How the data were processed

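Reads of each library were mapped by the authors with STAR 2.6.1d, per the labels, and the deposited unit is the raw count of reads per gene. Of the 3 counts that STAR gives for a gene, the unstranded one was used. Without strand, reads of overlapping or antisense genes cannot be told apart. Reads that fit several places are not in the counts. A deposited table of normalized values was not used here. Gene symbols of 4090 of 14407 IDs came from the RefSeq table of the assembly Hsal_v8.6, and Or genes were placed on scaffolds with the study's receptor table.

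Genes averaging 10 or more counts over the libraries were tested two-sided with edgeR 4.0.16 (R 4.3.3; TMM normalization, quasi-likelihood test). The model held all 27 libraries in 8 groups of genotype and stage, and the contrast was WT D15 over WT D10. Benjamini-Hochberg adjustment ran over all 11086 genes, with a threshold of 0.05. Normalized counts are counts divided by size factors of DESeq2 1.42.0. A stage with at most 3 counts in every library was taken as at the floor, and such genes are given by a bound. The bound divides the mean of the other stage by that floor. It covers at most counting error and leaves out the spread between libraries. On simulated data of 11056 genes, 198 of them changed 4-fold, edgeR recovered 97.5% of the changed genes, and 4.46% of its calls were false. Whether these rates hold with the wider spread between the WT D15 libraries was not tested.

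The stage contrast, gene lists, and members were chosen with earlier results of these data known. Genes named are the study's markers, orco, and the Ir co-receptor genes; up to 5 members per list and direction with the smallest adjusted p; the 10 largest rises and falls with a symbol or receptor ID and no overlap between stages; the 3 largest in each direction among other IDs; and, of the Or genes, the 6 largest rises and all that fell. Apart from the markers, a mean of at least 100 normalized counts in the higher stage was asked for. A few members of the smaller lists are given by count only. Other genes are said to have been picked after their values were seen. Alternatives were DESeq2's test and size factors, library size only, no filter, filterByExpr, the 15 WT or the 7 libraries only, a term for sequencing batch or for replicate number, and each library left out in turn.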

Additional observations from a re-analysis of the deposited data

Results flagged for a closer look

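In the group of 4 WT D15 libraries, the gap of a library to the next one was divided by the whole range. A library was set apart when this ratio exceeded Dixon's critical value for 4 samples. Chance passes that value in about 1 of 20 groups of normally distributed values. Normalized counts were used here without a log, and most genes were chosen for their changes in these libraries. That rate is therefore no measure for the number flagged. Of 147 genes looked at, 20 had a library set apart. It was replicate 3 for 17 of them, replicate 1 for 2, and replicate 4 for 1.

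Replicate 3 stood above the other WT D15 libraries for cuticle and epidermal genes. The ratio was 0.998 for Ddc, 0.997 for Vajk4, 0.950 for Osi2, and 0.842 for yellow-b. It did so as well for NT1 (0.951), Nt5c (0.964), Ald1 (0.944), and LOC105189364 (0.997). Neuronal and glial genes with replicate 3 on top were VAChT (0.859), nAChRalpha4 (0.866), VGlut (0.894), and moody (0.965), and receptor genes of either kind were Hr38 (0.965), ftz-f1 (0.883), and HsGr5 (0.980). Among genes that fell, replicate 3 kept the most of LOC105189257 (0.967) and LOC105183875 (0.835). Replicate 1 stood above the others for LOC105186822 (0.976) and Rh50 (0.908). Replicate 4 did for Klp68D (0.922), in which its count was nearest to that of D10. WT D15 replicate 3 also had the lowest correlations of its stage with WT D10. Its correlations with the 4 WT D20 libraries were 0.915 to 0.949, while those of replicates 1, 2, and 4 were 0.906 to 0.911, 0.905 to 0.911, and 0.913 to 0.92. What sets replicate 3 apart was not tested.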

How the results depend on the processing

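Of the 135 called genes that were looked at singly, 69 kept their call in all 17 alternatives, 31 lost it without at least 1 library, and 61 in at least 1 other setting, mostly the fits with only the 7 libraries. The direction turned in 1 of them, Ddc, with log2 fold changes of −0.47 to 6.53 over the fits without 1 library, the lowest of them without WT D15 replicate 3. Among named genes that did not pass, the sign turned for grh (−0.42 with a batch term, and −0.20 without WT D15 replicate 4 to 0.58 without WT D15 replicate 1), for fne (−0.31 to 0.0176 without single libraries), for HsIr76b (−0.0838 to 0.30), and for HsIr25a.2 (−0.58 to 0.21).

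Over the fits that left out 1 library, 1061 to 1866 genes were higher and 766 to 1329 lower. These fits gave 17 to 23 lower DNA replication genes, 19 to 27 lower mitotic genes, 4 to 13 higher synaptic genes, 6 to 16 higher ion channel genes, 204 to 245 higher and 7 to 16 lower Or genes (orco included), 10 to 11 higher and 3 to 5 lower hormone genes, 6 to 14 higher cuticle genes, and 5 to 10 lower cilium genes. With only the 7 libraries, and thus without the spread of the other groups, 1178 genes were higher and 708 lower. Of the lower ones 11 were mitotic, and 5 cuticle genes were higher. With the 15 WT libraries, 8 cuticle genes were higher. Library size as the only scaling gave 16 lower mitotic and 8 higher ion channel genes, and a batch term 14 lower cilium genes. Over all genes tested, the median log2 fold change came to 0.08 with DESeq2 size factors and 0.05 with library size only, against 0.03.

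Replicate numbers did not pair the stages. Deviations from the stage mean correlated by 0.022, 0.079, and 0.052 for replicates 1, 2, and 3, although every library correlated best with its own number. With the replicate block in the model of all libraries, 1669 genes were higher and 1367 lower, 19 of the lower ones from the patterning and signaling list, and the log2 fold changes of sv and grh were −0.0359 and −0.58. With the replicate block and only the 7 libraries, 780 genes were higher and 510 lower, with 11 lower DNA replication, 15 lower mitotic, 6 higher synaptic, 8 higher ion channel, 147 higher and 3 lower Or, 2 lower hormone, 4 higher cuticle, and 2 lower cilium genes, and sv and grh at −0.16 and −0.33. Fewer samples were in these fits; apart from that, the cause was not tested. A planned search of promoters for a sequence motif was not run, since it needs a genome. Depth limits Or genes, of which 99 were at the floor at D10.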
